A study of Mus musculus with 6 samples.

Results

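The genes described here are a list of 8 names that mark or feed the endothelium of lymphatic vessels: Prox1, Lyve1, Flt4, Mmrn1, Reln, Pdpn, Ccl21a and Vegfc. They were looked up by symbol in the deposited table of 16454 genes, which gave 6 of the 8, and Pdpn and Ccl21a were not analysed here. The tissue was the whole ovary of CD1 mice aged 21 days after birth, and the mice belonged to generation 3 of 2 lineages. In the DEHP lineage the founding dams (generation 0) had been given di(2-ethylhexyl) phthalate (DEHP), a plasticizer, at 20 µg/kg/day, and in the control lineage they had been given tocopherol-stripped corn oil as vehicle. Each lineage was represented by 3 ovaries that were sequenced one by one. The animals sampled are described only as descendants, and the labels do not say whether the 3 ovaries of a lineage came from separate litters or how many founders stood behind them. The p-values therefore measure the spread between these ovaries, which may be technical or shared by litter. The comparison asks whether ancestral exposure went with a different level of these transcripts.

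Lymphatic vessels drain fluid and immune cells from tissues, and the ovary carries a network of them in its medulla and around its larger follicles. Their endothelial cells are set apart from those of blood vessels by the homeobox factor PROX1, which switches on and maintains lymphatic genes. The ligand VEGF-C, released by neighbouring cells and cut to its active form outside the cell, acts on the receptor VEGFR-3 (the product of Flt4) and drives growth of the vessels. A whole ovary mixes all of its cell types, so that fewer cells of a type and less RNA per cell cannot be told apart in any value below.

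Every value rests on log2 CPM (the log2 of a gene's reads after scaling to library size) from which the authors had removed a surrogate variable, an estimated nuisance direction across samples. The deviations of the ovaries from their lineage means had nothing left along 1 of 4 directions, and that direction had weights of -0.60 on DEHP-lineage replicate 1 and 0.75 on DEHP-lineage replicate 3. Across genes, the correlation between these 2 libraries was 0.998, and that of the other pairs of libraries was 0.978 to 0.989. SDs within the DEHP lineage are therefore smaller than the spread between ovaries before the removal. Summed CPM ranged from 979868 to 1026735 per library, the read depth is unknown, and the median gene of the table had a log2 fold change of -0.01. By limma's moderated test with Benjamini-Hochberg adjustment over all genes, 7 of 16454 genes (0.0425%) had an adjusted p under 0.05, 4 of them (0.0243% of all genes) higher in the DEHP lineage. The number of genes past the threshold was 35 without DEHP-lineage replicate 2, 21 without control-lineage replicate 1 and 3 without control-lineage replicate 2.

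None of the measured lymphatic genes passed this test (0 of 6), and all 6 had a higher mean in the DEHP lineage, where 46.9% of all genes had a higher mean. In 5 of the 6 every DEHP-lineage ovary lay above every control-lineage ovary. Over all genes the groups did not overlap in 22.9%, and 10.8% lay higher in the DEHP lineage in this way. An unadjusted p under 0.05 was reached by 3 of the 6 (Reln, Mmrn1 and Prox1), all higher, while 8.78% of all genes reached it and 4.76% did so with a higher level. The median log2 fold change of the 6 genes was 0.27. These genes share the same 6 libraries, so they do not count as 6 separate observations. The list was also chosen with earlier results of these data known, so its counts are not an independent contrast with all genes.

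**Figure D1:**
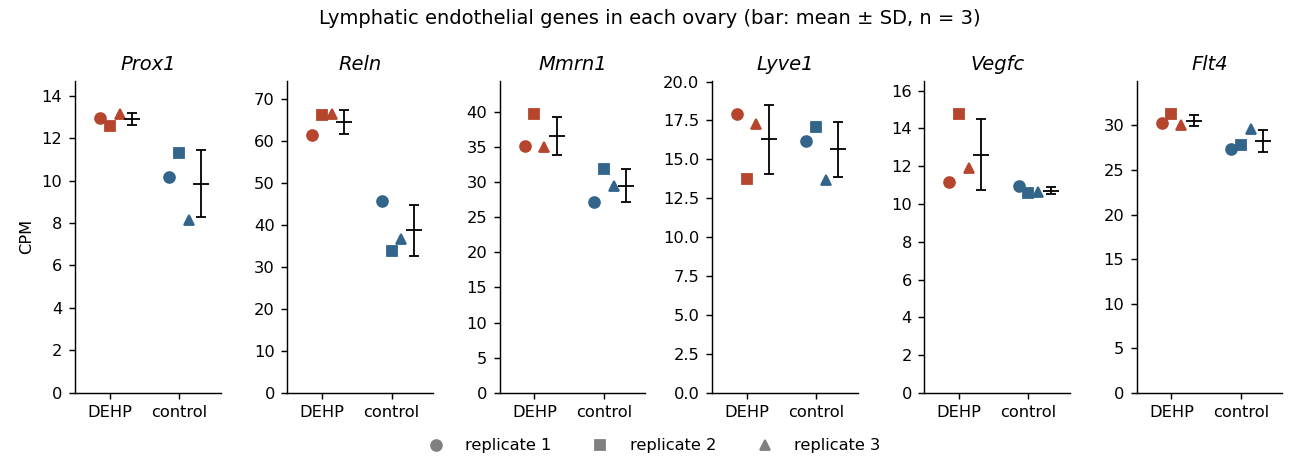
CPM of the 6 measured lymphatic genes (vertical axes, each from 0) in the 3 ovaries of the DEHP lineage and the 3 of the control lineage; symbols mark the replicate, and the bars give mean ± SD. Reln shows the widest gap between the lineages, with 61.3 to 66.3 CPM in the DEHP lineage against 33.8 to 45.6 CPM in the control lineage, and Lyve1 overlaps.

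Prox1 (Entrez 19130, minus strand of chromosome 1, 190118035 to 190170827 in GRCm38.p6) is the master factor of lymphatic identity and is also made in some neurons, liver cells and lens cells. It was at 13.0, 12.6 and 13.1 CPM in the DEHP-lineage ovaries, against 10.2, 11.3 and 8.13 CPM in the control-lineage ovaries. All 3 DEHP-lineage values lay above the highest control value and close together, and the control values spread more widely, with control replicate 3 lowest. Because the surrogate variable removal narrowed the DEHP-lineage spread, the spreads of the lineages cannot be compared directly. On the log2 scale the means were 3.69 ± 0.03 in the DEHP lineage and 3.29 ± 0.24 in the control lineage (SD, n = 3 each), a log2 fold change of 0.40 with an SE of 0.16. The fold of 1.32 had a 95% interval of 1.02 to 1.71. The limma adjusted p was 0.558. Without control replicate 3 the log2 fold change was 0.27.

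Reln (Entrez 19699, minus strand of chromosome 5, 21884454 to 22344705) encodes reelin, a large secreted glycoprotein best known for guiding neurons, which lymphatic endothelial cells of collecting vessels also release. Its levels were 61.3, 66.2 and 66.3 CPM in the DEHP lineage, against 45.6, 33.8 and 36.8 CPM in the control lineage. The groups stood apart by 0.43 on the log2 scale between the lowest DEHP-lineage and the highest control-lineage ovary, the widest such gap of the 6 genes. The means were 64.6 ± 2.84 CPM in the DEHP lineage and 38.7 ± 6.14 CPM in the control lineage (SD, n = 3 each). The log2 fold change was 0.75 (SE 0.12), a fold of 1.68 with a 95% interval of 1.38 to 2.05, and 97.2% of all genes had a lower log2 fold change. Its unadjusted p of 0.000385 by limma ranked 36 among all genes, and its adjusted p was 0.174. Without control replicate 1, the highest of the control ovaries, the log2 fold change was 0.87 and the limma adjusted p 0.0202, which passes. With DEHP-lineage replicates 1 and 3 averaged into 1 sample the log2 fold change was 0.76 and the limma adjusted p 0.242.

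Mmrn1 (Entrez 70945, plus strand of chromosome 6, 60944317 to 60989378) encodes multimerin 1, a secreted protein stored in platelets and endothelium whose transcript is enriched in lymphatic endothelium. It was at 35.1, 39.6 and 34.9 CPM in the DEHP lineage, against 27.1, 31.9 and 29.5 CPM in the control lineage. The highest value was that of DEHP-lineage replicate 2, and the ranges did not overlap. The log2 fold change was 0.31 (SE 0.10, 95% interval 0.07 to 0.55), and the limma adjusted p was 0.491.

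Lyve1 (Entrez 114332, minus strand of chromosome 7, 110850607 to 110862953) encodes a hyaluronan receptor of lymphatic endothelium that tissue macrophages also carry. Its levels were 17.9, 13.8 and 17.3 CPM in the DEHP lineage, against 16.2, 17.1 and 13.7 CPM in the control lineage. The groups overlapped, with 1 low ovary in each. The log2 fold change was 0.05 with a 95% interval of -0.31 to 0.42 (limma adjusted p 0.931), so that folds between 0.809 and 1.33 lay within the interval. Its sign turned without DEHP-lineage replicate 1 (-0.02) or control replicate 3 (-0.04), and with DEHP-lineage replicates 1 and 3 averaged (-0.004).

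Vegfc (Entrez 22341, plus strand of chromosome 8, 54077532 to 54186454) encodes the growth factor itself and is made by cells around the vessels rather than serving as a mark of lymphatic endothelium. It was at 11.2, 14.7 and 11.9 CPM in the DEHP lineage, against 10.9, 10.6 and 10.6 CPM in the control lineage. DEHP-lineage replicate 2 stood well above the rest, the other 2 DEHP-lineage ovaries lay just above the controls, and the gap between the groups was 0.03 on the log2 scale. The log2 fold change was 0.23 (SE 0.15, 95% interval -0.12 to 0.58; limma adjusted p 0.701), and without DEHP-lineage replicate 2 it was 0.11.

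Flt4 (Entrez 14257, plus strand of chromosome 11, 49609679 to 49652739) encodes VEGFR-3, the receptor of VEGF-C and VEGF-D, which sprouting blood vessels can also use. Its levels were 30.3, 31.2 and 30.1 CPM in the DEHP lineage, against 27.3, 27.8 and 29.6 CPM in the control lineage. The ranges did not overlap, by 0.02 on the log2 scale. The log2 fold change of 0.11 (95% interval -0.09 to 0.32) had a limma adjusted p of 0.746.

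The same 6 genes all had a positive log2 fold change in the authors' deposited table, of 0.74 for Reln, 0.39 for Prox1, 0.31 for Mmrn1, 0.24 for Vegfc, 0.11 for Flt4 and 0.06 for Lyve1. The authors' deposited table gave Reln an adjusted p of 0.263 and the other genes of the list larger ones.

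To compare levels between genes, CPM was divided by the exonic length of each gene in the GENCODE M21 annotation of GRCm38, which ran from 2449 bases for Vegfc to 23738 bases for Reln. In the DEHP lineage the levels per kilobase, in CPM per kilobase, were 6.23 ± 0.454 for Mmrn1, 5.58 ± 0.762 for Lyve1 and 5.15 ± 0.767 for Vegfc (SD, n = 3). Below them came Flt4 at 3.71 ± 0.0748, Reln at 2.72 ± 0.120 and Prox1 at 1.53 ± 0.0338. In the control lineage the order was Lyve1 at 5.36 ± 0.603, Mmrn1 at 5.03 ± 0.407 and Vegfc at 4.37 ± 0.0807, then Flt4 at 3.43 ± 0.144, Reln at 1.63 ± 0.259 and Prox1 at 1.17 ± 0.191. Mmrn1 and Lyve1 did not differ beyond their spread in either lineage, nor did Lyve1 and Vegfc in the DEHP lineage. Flt4 stood apart from both of its neighbours in each lineage. The lengths sum all annotated exons of a gene, so a level per kilobase is a lower estimate wherever only some exons are used.

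Shared sequence was small for all 6. Of the 31-base words in its annotated transcripts, the share also found in transcripts of another gene was 1.23% for Prox1, 1.11% for Reln and 0.657% for Flt4, and 0 for Lyve1, Mmrn1 and Vegfc. Prox1 shares 133 of its 8390 exonic bases with the antisense gene Prox1os, and Reln shares 246 with the antisense gene Gm10475. The sources used here do not give the strand setting of the counting, so reads in these stretches cannot be assigned, but they span only 1.59% and 1.04% of the exonic bases.

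The promoters of the 3 genes with the largest log2 fold changes among the 6 are shown because they differ sharply in base composition, in a study whose title also concerns DNA methylation. Each window runs from 250 bases before to 50 bases after a RefSeq transcription start in GRCm38.p6, on the gene's own strand, and capitals mark CG dinucleotides, the sites of DNA methylation. The windows are chr5:22344656-22344955 (minus strand) for Reln, chr1:190170778-190171077 (minus strand) for Prox1, the upstream one of its 2 starts, and chr6:60944067-60944366 (plus strand) for Mmrn1.
Reln: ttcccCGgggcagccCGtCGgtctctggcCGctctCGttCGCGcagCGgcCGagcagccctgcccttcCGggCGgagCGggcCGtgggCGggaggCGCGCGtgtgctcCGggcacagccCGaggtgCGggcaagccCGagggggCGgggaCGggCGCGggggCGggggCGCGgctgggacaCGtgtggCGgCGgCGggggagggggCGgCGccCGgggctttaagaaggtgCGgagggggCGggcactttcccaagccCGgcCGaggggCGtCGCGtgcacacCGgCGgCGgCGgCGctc
Prox1: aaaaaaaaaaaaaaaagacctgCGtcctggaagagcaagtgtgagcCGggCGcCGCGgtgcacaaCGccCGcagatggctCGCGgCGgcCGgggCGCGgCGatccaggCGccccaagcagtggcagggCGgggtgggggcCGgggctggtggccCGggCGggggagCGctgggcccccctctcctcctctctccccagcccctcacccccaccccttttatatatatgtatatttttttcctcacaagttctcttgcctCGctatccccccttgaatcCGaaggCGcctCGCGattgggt
Mmrn1: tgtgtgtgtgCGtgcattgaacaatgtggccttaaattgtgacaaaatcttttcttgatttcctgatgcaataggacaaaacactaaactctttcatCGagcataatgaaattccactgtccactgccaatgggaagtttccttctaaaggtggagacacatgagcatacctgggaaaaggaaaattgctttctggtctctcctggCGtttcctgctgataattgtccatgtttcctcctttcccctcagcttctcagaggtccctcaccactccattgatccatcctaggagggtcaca

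Reln has 47 CG dinucleotides in its window, a number that 1.44% of the 32851 RefSeq promoter windows of this length reach. Prox1 has 25 at this start and 14 at the downstream one, and Mmrn1 has 3, where the median of all windows is 7. Vegfc, with 35, and Flt4, with 26, are CG-rich as well, and RefSeq windows matched 5 of the 6 measured genes. A pair of short motifs was searched on both strands: AACAAT, the core that SOX factors such as SOX18 bind, and AGGTCA, the half-site of nuclear receptors such as NR2F2. AACAAT occurred once, at -231 in the Mmrn1 window, and occurs in 10.7% of all windows. AGGTCA occurred in 0 of the windows of these genes and occurs in 16.3% of all windows. No methylation values were used here.

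**Figure D2:**
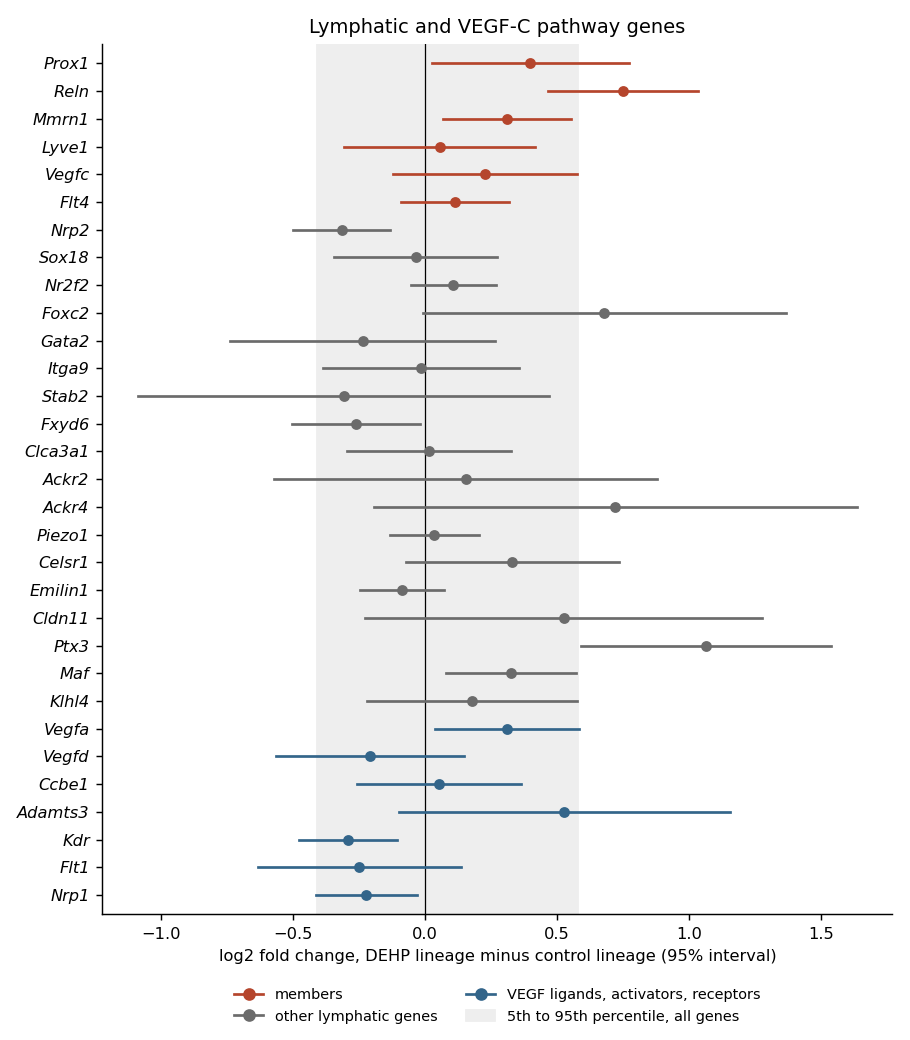
Log2 fold change (DEHP lineage minus control lineage) with 95% interval for the 6 measured lymphatic genes, 18 other lymphatic genes and 7 genes of VEGF signalling; the grey band runs from the 5th to the 95th percentile of all genes. Reln, Foxc2, Ackr4 and Ptx3 lie to the right of the band, at 0.75, 0.68, 0.72 and 1.06. Ackr4 was low, at 0.718 CPM in the DEHP lineage and 0.445 CPM in the control lineage, with an interval of -0.19 to 1.63. The points of Kdr and Nrp2 lie left of 0 but within the band, at -0.29 and -0.32, and other genes also lie left of 0.

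Other genes of lymphatic endothelium were split between the lineages. Of 19 listed genes, 18 were measured, 11 with a higher and 7 with a lower mean in the DEHP lineage, with a median log2 fold change of 0.07 and 0 past the limma adjusted p; an unadjusted p under 0.05 was reached by 2 higher and 2 lower genes. The groups did not overlap in 5 higher and 3 lower genes. Of all 16454 genes, 783 higher and 662 lower ones reached an unadjusted p under 0.05 by limma. In 1776 higher and 2000 lower genes of the 16454 the groups did not overlap. Ptx3, which encodes pentraxin 3, an innate immune protein also made by cumulus cells around the oocyte, averaged 6.42 CPM in the DEHP lineage and 3.10 CPM in the control lineage. Its log2 fold change was 1.06 (SE 0.20), and its limma adjusted p was 0.272. Nrp2, the neuropilin that binds VEGF-C beside VEGFR-3, averaged 103 CPM in the DEHP lineage and 129 CPM in the control lineage, a log2 fold change of -0.32 (SE 0.08; limma adjusted p 0.392). The groups did not overlap for either gene. Maf, which encodes a transcription factor, had a log2 fold change of 0.32 and Fxyd6, an ion pump regulator gene, one of -0.26.

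The factors that act before or beside PROX1 were measured as well, and they are named here after their values were seen. Sox18, which switches on Prox1 in the mouse embryo, had a log2 fold change of -0.04 (95% interval -0.34 to 0.27). Nr2f2, which encodes the partner COUP-TFII of venous and lymphatic cells, was at 149 CPM in the DEHP lineage and 139 CPM in the control lineage, with a log2 fold change of 0.11 (-0.05 to 0.27). Foxc2, a factor of lymphatic valves, was low, at 1.10 CPM in the DEHP lineage and 0.687 CPM in the control lineage, with a log2 fold change of 0.68 (-0.01 to 1.37). Itga9, the integrin chain of lymphatic valves, was at -0.02 (-0.39 to 0.36). None of the 4 had an adjusted p under 0.05 by limma.

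**Figure D3:**
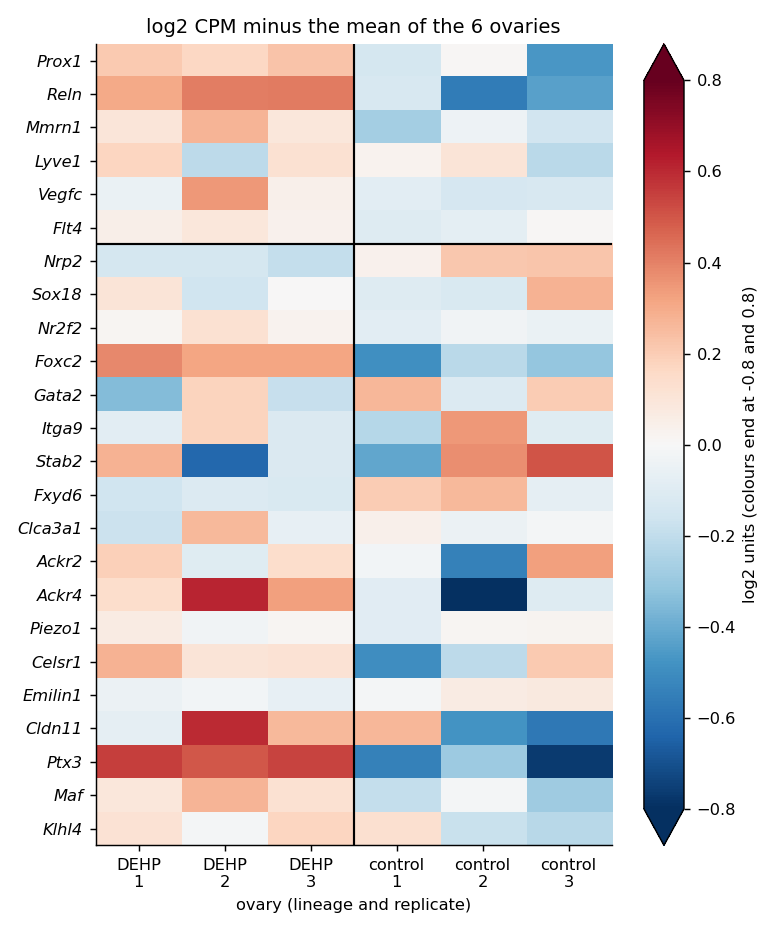
Log2 CPM minus the mean of the 6 ovaries for the measured lymphatic genes (above the line) and the other lymphatic genes (below it), one column per ovary with the DEHP lineage on the left; red is above and blue below the mean. Prox1, Reln and Mmrn1 are red in all 3 DEHP-lineage ovaries, Vegfc mainly in replicate 2, and the lower block is mixed, with 11 higher and 7 lower means.

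Among the ligands, processing enzymes and receptors around VEGF-C, 28 of 29 listed names were measured (the remaining name, Figf, is an older symbol of Vegfd). Of these 9 had a higher and 19 a lower mean in the DEHP lineage, with a median log2 fold change of -0.11 and 0 past the limma adjusted p; an unadjusted p under 0.05 was reached by 1 higher and 5 lower genes. The groups did not overlap in 1 higher and 10 lower genes. Over all 16454 genes, 783 higher and 662 lower ones had an unadjusted p under 0.05 by limma, and 1776 higher and 2000 lower ones did not overlap. The second lymphatic ligand, Vegfd, was at 25.4 CPM in the DEHP lineage and 29.5 CPM in the control lineage (log2 fold change -0.21, 95% interval -0.56 to 0.15). Ccbe1 and Adamts3, whose products together process VEGF-C, had log2 fold changes of 0.05 (-0.26 to 0.36) and 0.53 (-0.10 to 1.16). Kdr, which encodes VEGFR-2, the main receptor of blood vessels, was at 53.3 CPM in the DEHP lineage and 65.2 CPM in the control lineage, a log2 fold change of -0.29 (SE 0.08; limma adjusted p 0.455). Flt1, which encodes VEGFR-1, was at -0.25 (-0.63 to 0.14). Ptprb, a phosphatase gene of endothelium, and Svep1, an extracellular matrix gene needed for lymphatic growth, were at -0.32 and -0.38, with limma adjusted p values of 0.499 and 0.507. Vegfa, the blood vessel ligand, was the gene whose groups stood apart upward, at 96.4 CPM in the DEHP lineage and 78.3 CPM in the control lineage, and is named after its value was seen.

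The receptors and mediators of reelin gave 10 measured genes, 4 with a higher and 6 with a lower mean, a median log2 fold change of -0.04 and 0 past the limma adjusted p or an unadjusted p of 0.05. The receptor genes Vldlr and Lrp8 had log2 fold changes of 0.12 (95% interval -0.26 to 0.50) and 0.23 (-1.04 to 1.49). Dab1, the adaptor that carries the signal, was at 3.70 CPM in the DEHP lineage and 5.74 CPM in the control lineage, with an interval of -2.14 to 1.28 that shows how widely it varied between ovaries. The kinase gene Src, the adaptor gene Crkl and the exchange factor gene Rapgef1 were at 0.12, -0.13 and -0.13, and the integrin gene Itga3 at 0.21. The ligand had the smallest unadjusted p of this group by limma, since the smallest among the 10 others was 0.0959. Reln and this list were chosen with earlier results of these data known, so that order is not an independent contrast.

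A list of partners of podoplanin and of the CCR7 ligands, with some related genes, gave 8 measured genes of 12, and Ccr7, Ccl19, Ccl21b and Ccl21c were not analysed here. Clec1b, the platelet receptor of podoplanin, was at 0.538 CPM in the DEHP lineage and 0.256 CPM in the control lineage, with a log2 fold change of 1.17 (95% interval 0.04 to 2.29; limma adjusted p 0.564). At such low levels the fold depends on the prior count that the authors added. Of the 8 measured genes 5 had a higher and 3 a lower mean in the DEHP lineage, with a median log2 fold change of 0.03. Msn and Rdx, which link podoplanin to the cytoskeleton, had log2 fold changes of -0.23 and -0.15. Ezr, of the same list and named after its value was seen, had one of 0.06. The chemokine scavenger gene Ackr3, listed as a related gene and not as a scavenger of the CCR7 ligands, had one of -0.14.

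Summed over the 6 genes, the level was 169, 178 and 174 CPM in the DEHP lineage, against 137, 132 and 128 CPM in the control lineage, with Reln as the largest part. Summed markers of blood endothelium (16 genes) were at 458, 532 and 472 CPM in the DEHP lineage, against 527, 556 and 514 CPM in the control lineage. These ranges overlapped, and of the 16 genes 6 had a higher and 10 a lower mean (median log2 fold change -0.09). The 18 other lymphatic genes summed to 910 to 977 CPM in the DEHP lineage and to 877 to 1021 CPM in the control lineage, which overlapped. Itga9 and Nr2f2 were the largest parts, at 240 and 149 CPM in the DEHP lineage and 245 and 139 CPM in the control lineage. This sum therefore mainly follows its most abundant genes. Sums of the VEGF-C pathway list did not overlap and were lower in the DEHP lineage, at 3654 to 3675 CPM against 3686 to 3961 CPM. Itgb1, their largest part, averaged 685 CPM in the DEHP lineage and 768 CPM in the control lineage. The gap between these sums therefore cannot be read as one of the whole list. Adamts2 came next, at 578 and 549 CPM. Kdr, Flt1, Tie1 and Tek were also counted in blood endothelium. Sums of the podoplanin and CCR7 ligand partner list were lower without overlap too, at 929 to 966 CPM against 972 to 1063 CPM. Rdx, their largest part, averaged 400 and 446 CPM.

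Markers of other cells, some of which also express these genes, showed other patterns. Macrophage markers, 15 genes with a higher mean in 7 and a lower one in 8, summed to 165 to 200 CPM in the DEHP lineage. In the control lineage they summed to 122 to 223 CPM, with the lowest value in control replicate 2. Lyve1 was at 17.1 CPM in that ovary, against 16.2 and 13.7 CPM in control replicates 1 and 3. The part of macrophages in the Lyve1 values was not tested. Surface epithelium and mesothelium markers, 13 genes with a higher mean in 6 and a lower one in 7, summed to 337 to 359 CPM in the DEHP lineage and to 304 to 406 CPM in the control lineage. Most of these sums was Wt1, at 204 CPM in the DEHP lineage and 213 CPM in the control lineage, so they mainly follow that gene. Lymphocyte and lymph node markers had 5 measured genes of 14, 4 with a higher mean and 1 with a lower one, and sums of 10.4 to 11.2 CPM in the DEHP lineage and 6.14 to 14.3 CPM in the control lineage. Fat markers, 10 genes with a higher mean in 7 and a lower one in 3, summed to 1408 CPM in DEHP-lineage replicate 2. Vegfc, Mmrn1 and Flt4 were also highest in that ovary. Prox1 and Lyve1 were at 12.6 and 13.8 CPM there, the lowest values of the DEHP lineage. The other 2 DEHP-lineage ovaries had fat marker sums of 378 and 527 CPM, against 398 to 872 CPM in the control lineage. Control replicate 1 had the sum of 872 CPM. Of the control ovaries it had the lowest Mmrn1 and Flt4, at 27.1 and 27.3 CPM, and the highest Vegfc, at 10.9 CPM. The part of fat in the Vegfc, Mmrn1 and Flt4 values was not tested. Without DEHP-lineage replicate 2 the log2 fold changes of Vegfc, Mmrn1 and Flt4 were 0.11, 0.25 and 0.10. Of the 9 oviduct and smooth muscle markers, 4 had a higher and 5 a lower mean. Split by tissue after the values were seen, the 4 oviduct genes all had a higher mean. Their sums were 13.8 to 26.3 CPM in the DEHP lineage and 11.6 to 16.8 CPM in the control lineage, which overlapped. The largest part was Sox17, at 10.1 CPM in the DEHP lineage and 8.51 CPM in the control lineage, which was also counted in blood endothelium. The 5 smooth muscle genes all had a lower mean, with sums of 1249 to 1420 CPM in the DEHP lineage and 1576 to 1759 CPM in the control lineage, without overlap. Whether the smooth muscle values had a part in those of the lymphatic genes was not tested. Theca markers had a lower mean in 10 of 10, with sums of 2826 to 2929 CPM in the DEHP lineage and 3034 to 3743 CPM in the control lineage.

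**Figure D4:**
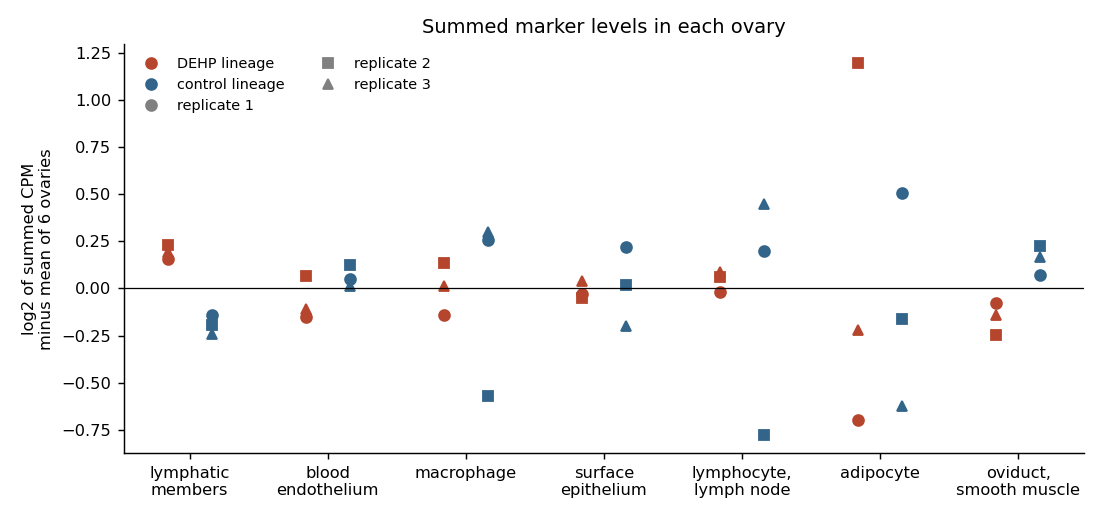
Log2 of summed CPM per marker list minus the mean of the 6 ovaries, with the DEHP lineage left of the control lineage in each list and symbols for the replicate. The lymphatic sums (169 to 178 CPM in the DEHP lineage, 128 to 137 CPM in the control lineage) do not overlap. Nor do those of oviduct and smooth muscle, which are lower in the DEHP lineage (1276 to 1434 CPM against 1592 to 1771 CPM). Fat markers spread most widely within a lineage.

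Profiles over the 6 ovaries were compared by the root mean square difference of log2 CPM after each gene's mean was taken out, among 13063 genes with a mean log2 CPM of at least 1. The genes closest to Prox1 were Per3, a circadian clock gene, at 0.028, Efcc1 at 0.045 and Rragd, a nutrient-sensing GTPase gene, at 0.049, where the median over all these genes was 0.278. Among the lymphatic genes listed, the closest was Maf, a transcription factor gene, at 0.109 and rank 103, and of the 6 measured genes it was Mmrn1, at 0.163 and rank 617. Closest to Reln were Nlgn1, a neuronal adhesion gene, at 0.071, Ccdc187 at 0.074 and the interferon receptor gene Ifnlr1 at 0.079, and the closest lymphatic genes listed were Cldn11, a tight junction gene, at rank 268 and Prox1 at rank 410. Closest to Lyve1 were Mon1a at 0.027, the homeobox gene Hlx at 0.031 and Zfp37 at 0.031. No lymphatic gene listed was thus among the 3 nearest neighbours of Prox1, Reln or Lyve1. The likeness rests on 6 ovaries and says nothing of shared cells or control.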

How the data were processed

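RNA of 6 whole ovaries, 3 per lineage, was sequenced from libraries made with a strand-marking mRNA kit, per the labels' protocols. The submitters' processing notes name edgeR 3.20.5, STAR 2.5.3a, Subread 1.5.2 with featureCounts, Trimmomatic 0.36 and the build GRCm38.p6, among others; how each was set is not stated in these notes. The authors deposited log2 CPM per ovary with a surrogate variable removed, per the file's name. The same deposited table holds the authors' log2 fold change, signed fold, p-value and adjusted p, of which the log2 fold change and adjusted p are quoted.

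The lineages were compared over all genes with limma 3.58.1 in R 4.3.3 on the deposited log2 CPM values, using a mean-variance trend. No filter, pseudocount or covariate was added, and the two-sided p-values had Benjamini-Hochberg adjustment and a threshold of 0.05. Its 3 residual degrees of freedom, in place of 4, count the removed direction. Alternative fits lost the share of that direction that they contained. SDs are over ovaries, and no read depth or counting error could be given. The members and gene lists were chosen with earlier results of these data known. Named are all members, the 4 genes with the smallest p of each pathway list, and a fixed set of ligands, receptors and partners. The 3 genes closest in profile to Prox1, Reln and Lyve1 are named too. Cell type lists are given by counts and sums. The lymphatic genes closest in profile, the largest genes of some sums and Ezr were added. The split of the oviduct and smooth muscle list was made after its values were seen. Sequences and positions are RefSeq's (GRCm38.p6), and lengths, overlaps and shared words are from GENCODE M21.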

Additional observations from a re-analysis of the deposited data

How the results depend on the processing

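The log2 fold changes of Prox1, Reln, Mmrn1, Vegfc and Flt4 kept their sign under the 10 of 15 alternatives that can move a fold change (the other 5 change only the error or the genes tested), with ranges of 0.27 to 0.50, 0.66 to 0.87, 0.25 to 0.37, 0.11 to 0.31 and 0.09 to 0.15. Lyve1 ranged from -0.04 to 0.17 and turned negative without DEHP-lineage replicate 1 (-0.017) or control-lineage replicate 3 (-0.039) and with DEHP-lineage replicates 1 and 3 averaged (-0.0038); the cause was not tested. The number of genes past the threshold was 7 and became 20 with 4 residual degrees of freedom, 3 with quantile normalization, 1 with no mean-variance trend, and 3 to 35 when 1 ovary was left out. The number of lymphatic genes past it was 0, and 0 to 1 when 1 ovary was left out. With the replicate number as a block, 155 genes passed, 1 of them lymphatic (Reln, limma adjusted p 0.00298). Over its other alternatives the adjusted p of Reln ran from 0.0202 to 0.390. Whether the replicate numbers pair the ovaries is unknown. The deviations of same-numbered ovaries from their lineage means had correlations of -0.327, -0.003 and -0.198 across genes. The removed direction has weights on ovaries of both lineages and so ties their deviations together, and these correlations cannot decide the question. The number of lymphatic genes whose groups do not overlap was 5, and 5 to 6 when 1 ovary was left out. The depth is unknown, so limits from counting could not be given, and 3 ovaries per lineage leave wide intervals for the small differences of Flt4, Lyve1 and Vegfc.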
